A study of Homo sapiens with 5 samples.

Results

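The comparison set MIAPaCa2 cells that carried a tail-deleted α2 integrin (MP2-α2Δ) against MIAPaCa2 cells that carried an α9α2 chimera (MP2-α9α2), on 1 Affymetrix array each. MIAPaCa2 is an established line of poorly differentiated pancreatic ductal adenocarcinoma. Its members were all non-control probe sets whose log2 value lay above background on either array, 30975 of the 54613 probe sets. They stood for 12924 of the 19775 genes with a single symbol, 1 probe set per gene, the one with the highest mean over the 5 arrays of the series. MP2-α2Δ cells carried the α2 chain without its cytoplasmic domain, were panned and then kept on collagenI, coated at 25 µg/ml, under zeocin. MP2-α9α2 cells carried the extracellular and transmembrane parts of α9 joined to the cytoplasmic domain of α2, were panned and then kept on a fibronectin type III fragment of tenascin (tenascin FNIII), coated at 10 µg/ml, under G418. Both were stably transfected, panned populations and not clones, the constructs stood in different plasmid backbones, and the β1 partner was that of the host cells. Construct, backbone, substrate and drug therefore differed together and cannot be told apart in what follows. The other 3 arrays were of mock cells (MP2-mock), cells with α2 on tissue culture plastic (MP2-α2/TC) and cells with α2 on collagenI (MP2-α2/CI). The mock cells were labelled as kept under drug selection, with the drug not named, and the cells with α2 were selected with zeocin. These arrays had another minimum and were taken as normalized apart, so that their values are given only as levels. With 1 array per population no difference has a replicate error or a test, and the number of arrays limits the precision.

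Integrins are pairs of an α and a β chain that span the membrane, bind the extracellular matrix on the outside and join adaptor and signalling proteins to the actin cytoskeleton on the inside. The α2 chain pairs with β1 to form a receptor for collagenI, and its short cytoplasmic tail takes part in signals that depend on the bound ligand. The α9 chain also pairs with β1 and binds tenascin-C. In the chimera the ligand of α9 thus meets the tail of α2, whereas the tail-deleted chain keeps the collagen-binding head with no tail behind it.

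The background level was the value below which 95% of 107 probe sets for odorant receptors lay, 2.21 on the log2 scale for both arrays, which was also their minimum to 2 decimals. Of the 30975 members, 30384 were above it on both arrays, 333 in MP2-α2Δ cells only and 258 in MP2-α9α2 cells only. Values below background were raised to it, so that a difference against such a value is a lower bound. MP2-α2Δ values exceeded those of MP2-α9α2 cells by 2-fold or more for 2343 probe sets, 7.56% of the members, and fell short of them by 2-fold or more for 1533, 4.95%. By genes the counts were 1299 higher (10.1%) and 642 lower (4.97%). With the second brightest probe set of the 6647 genes that had one above background on both arrays, 447 were higher (6.72%) and 386 lower (5.81%), so that the excess of higher genes was smaller there. The largest differences were on the higher side. At least 16-fold apart were 88 probe sets higher and 15 lower, and at least 64-fold apart were 31 higher and none lower. The median difference was 0, 29.7% of the members had identical values on both arrays, and 72.2% lay within 1.5-fold. The share 2-fold apart was lowest among dim members: it was 1.73% higher and 1.30% lower at mean levels from 2 to 4, and 11.1% and 8.27% at mean levels from 6 to 8.

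**Figure D1:**
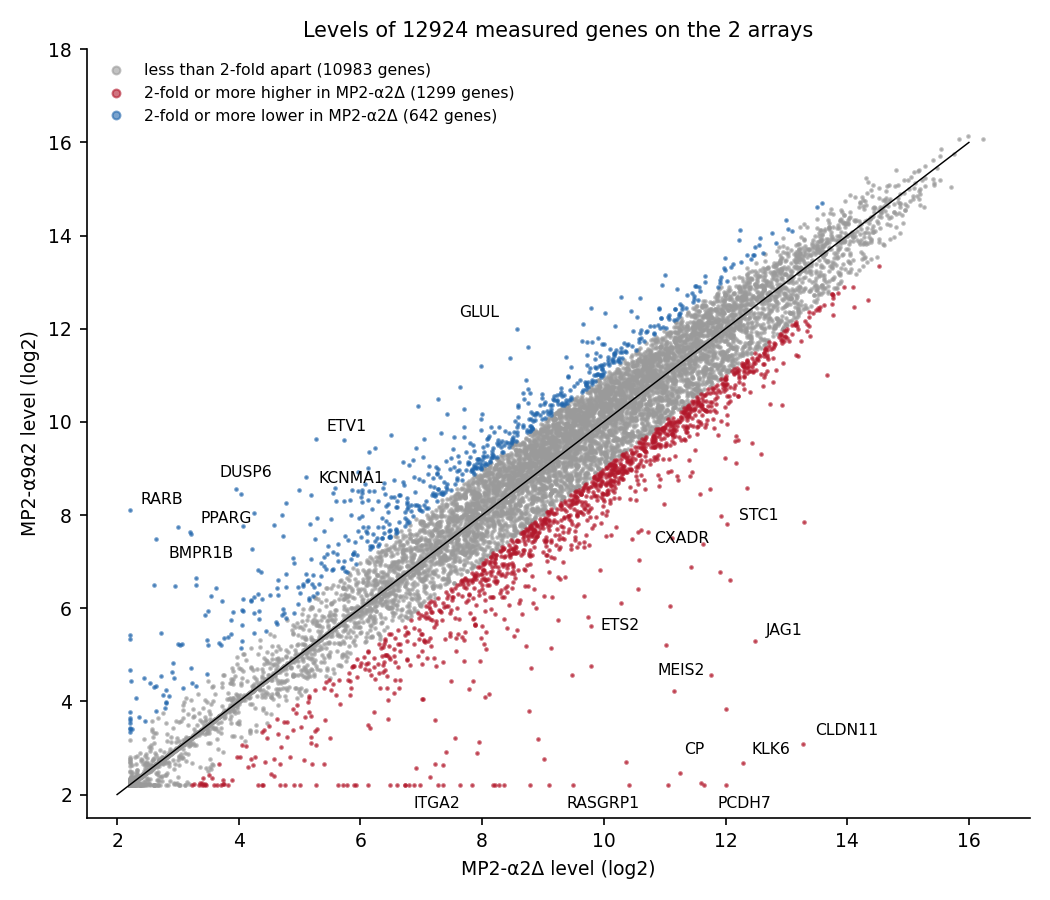
Log2 level of each of 12924 measured genes in MP2-α2Δ cells (x axis) against that in MP2-α9α2 cells (y axis), 1 point per gene, with the line of equal levels; red points are genes at least 2-fold higher and blue points genes at least 2-fold lower in MP2-α2Δ cells. The row of red points at 2.21 on the y axis holds genes at background in MP2-α9α2 cells, for which the difference is a lower bound.

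The control probe sets and markers of the line were read first. Probe sets for spikes added at hybridization were lower on the MP2-α2Δ array, with 9 differences from -0.69 to -0.35, and 12 for poly-A spikes differed by -0.20 to 1.37, with a median of 0.37. The 3 for 18S ribosomal RNA were 1.34 to 1.79 higher. GAPDH control probe sets differed by 0.15 to 0.28 and those of ACTB by -0.21 to -0.13. The 3′ over 5′ log2 difference of ACTB, a measure of RNA integrity, was 0.57 for MP2-α2Δ against 0.48 for MP2-α9α2 cells, and that of GAPDH was -0.15 and -0.02. Defining epithelial markers were mixed on both arrays: KRT18 read 15.04 for MP2-α2Δ against 14.75 for MP2-α9α2 cells and KRT19 12.99 against 12.75, whereas CDH1 and EPCAM lay at background. VIM, the mesenchymal intermediate filament, read 15.54 for MP2-α2Δ against 15.85 for MP2-α9α2 cells. Of lists of markers for other cell types, 2 of 16 blood genes, 1 of 16 acinar, 2 of 17 endocrine, 3 of 10 hepatocyte, 5 of 11 fibroblast and 7 of 15 ductal genes were measured, and none of these was 2-fold apart. Among 7 measured endothelial genes only ROBO4 was, at 5.18 for MP2-α2Δ against 8.44 for MP2-α9α2 cells. Among 11 neuronal or neuroendocrine genes SCG2 was higher (5.39 against 2.65), and STMN3 (12.56 against 13.94) and MAP2 (2.22 against 3.54) were lower. The part of these control and marker values in the differences below was not tested.

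The genes of the constructs and of their partner gave the first named differences. ITGA2, the gene of the α2 chain, read 7.28 in MP2-α2Δ cells and lay at the background of 2.21 in MP2-α9α2 cells by one probe set, and 3.28 against 2.21 by the other. ITGA1, which encodes the other widely expressed collagen-binding α chain, read 6.60 against 2.21 and 4.52 against 2.21 by its probe sets. Both ITGA2 probe sets lay at the minimum of 2.24 on the other 3 arrays, although the cells of MP2-α2/TC and of MP2-α2/CI carried α2. According to the study the α2 transgene lacks the untranslated sequences read by the probes, so that these probe sets do not check the constructs. The study also stated that its arrays identified no α2 expression in any of the cells. The value of 7.28 in MP2-α2Δ cells differs from that statement, and the source of this signal was not tested. All 4 probe sets of ITGA9 lay at the minimum on all 5 arrays, including that of MP2-α9α2 cells. Whether the ITGA9 probes lie within the chimera was not tested. ITGB1, the β1 partner of both chains, was bright on both arrays and read lower in MP2-α2Δ cells, at 14.15 against 14.86, 14.24 against 14.84 and 13.39 against 14.40 by its 3 bright probe sets. Among the 15 measured integrin genes, 4 were higher by 2-fold or more and 1 was lower, and the median was 0. The others were ITGAE, the αE chain (10.56 against 9.03), ITGB4, the β4 chain of the hemidesmosome (9.89 against 8.75), and ITGB8, the β8 chain that activates latent TGF-β (6.70 against 9.14, lower).

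ITGA1 and ITGA2 are neighbours on the long arm of chromosome 5, with start sites 201 kb apart in the RefSeq annotation of GRCh38.p14. KLK5 and KLK6, secreted serine proteases that were among the 10 largest increases, start 16.6 kb apart on chromosome 19, and RARB, a nuclear receptor for retinoic acid, was the largest decrease. The promoters of 4 of them are shown because KLK5, KLK6 and RARB carry some of the largest differences and ITGA2 is the gene of the α2 chain. Each runs from 250 bases before to 50 after the annotated start. Capitals mark matches on either strand to motifs searched in every promoter: the ETS core CCGGAAG (or CTTCCGG), the TEAD motif GGAATG (or CATTCC), the AP-1 motif TGAGTCA (or TGACTCA), the E-box CAGGTG (or CACCTG), the TATA box TATAAA (or TTTATA) and the retinoid direct repeat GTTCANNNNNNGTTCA (or TGAACNNNNNNTGAAC).
ITGA2, chr5:52989102-52989401, plus strand: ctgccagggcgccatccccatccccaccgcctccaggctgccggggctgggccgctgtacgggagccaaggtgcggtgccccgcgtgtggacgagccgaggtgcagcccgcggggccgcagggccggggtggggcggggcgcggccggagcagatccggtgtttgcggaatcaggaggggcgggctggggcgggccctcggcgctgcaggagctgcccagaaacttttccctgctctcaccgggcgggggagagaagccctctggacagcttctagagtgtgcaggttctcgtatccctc
KLK5, chr19:50952989-50953288, minus strand: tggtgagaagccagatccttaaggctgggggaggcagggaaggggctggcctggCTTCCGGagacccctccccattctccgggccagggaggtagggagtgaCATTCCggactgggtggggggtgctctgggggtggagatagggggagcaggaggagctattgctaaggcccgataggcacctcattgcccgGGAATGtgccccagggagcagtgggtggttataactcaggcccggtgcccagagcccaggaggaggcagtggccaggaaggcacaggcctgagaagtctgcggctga
KLK6, chr19:50969542-50969841, minus strand: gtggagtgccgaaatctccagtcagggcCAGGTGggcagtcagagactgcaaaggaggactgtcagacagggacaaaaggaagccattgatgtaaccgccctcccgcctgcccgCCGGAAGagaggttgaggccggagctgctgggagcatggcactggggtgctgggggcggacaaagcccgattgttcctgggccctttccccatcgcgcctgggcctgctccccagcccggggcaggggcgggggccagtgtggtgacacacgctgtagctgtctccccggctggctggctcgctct
RARB, chr3:25428013-25428312, plus strand: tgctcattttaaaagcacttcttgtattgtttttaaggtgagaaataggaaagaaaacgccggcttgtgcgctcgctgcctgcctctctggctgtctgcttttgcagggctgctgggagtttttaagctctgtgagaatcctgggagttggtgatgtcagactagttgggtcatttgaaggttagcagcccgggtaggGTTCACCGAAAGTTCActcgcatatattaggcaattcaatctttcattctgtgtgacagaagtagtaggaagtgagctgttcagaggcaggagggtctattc
Counted in bases from the start, KLK5 holds an ETS core at -196 and TEAD matches at -148 and -57, and KLK6 holds an E-box at -222 and an ETS core at -136. RARB holds the direct repeat at -52, a sequence found in 17 of the 27305 promoters of the table (0.0623%). ITGA2 and ITGA1 hold none of these letters in this window, which says only that the letters are absent there. Promoters were matched by symbol for 1054 of the 1299 genes that were higher, 525 of the 642 that were lower and 8875 of the 10983 less than 2-fold apart. The ETS core occurred in 22.4% of promoters of higher genes, 12% of those of lower genes and 18.9% of the rest, and in 10.7% of all promoters. It occurred in 3 of 43 promoters of genes at least 16-fold higher and in 3 of 85 of genes at least 4-fold lower. The other motifs differed less: TEAD matches stood in 11% of promoters of higher, 10.7% of lower and 10.7% of the remaining genes (14% of all promoters), E-boxes in 18.8%, 15.2% and 18.3% (20.6%), AP-1 motifs in 3.61%, 2.48% and 2.96% (4.92%) and TATA boxes in 5.22%, 4.38% and 6.10% (12%). The direct repeat stood in 0 of 1054 promoters of higher genes, 6 of 8875 of the rest and 1 of 525 of lower genes, that of RARB. A match is a description of the sequence and not a binding site.

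Of the 20 largest increases 9 were of genes at background in MP2-α9α2 cells, and are lower bounds, against 1 of the 20 largest decreases. CLDN11, PCDH7, KLK6, IL13RA2 and TPD52L1 led the order. The next was GRAMD2B, a GRAM-domain membrane protein, at 11.05 for MP2-α2Δ against 2.22 for MP2-α9α2 cells, by 1 of its 2 probe sets. CP, the copper-carrying ferroxidase ceruloplasmin, read 11.25 against 2.47, a 439-fold difference. All 4 CP probe sets were at least 2-fold higher, the others at 10.96 against 2.21, 8.96 against 2.21 and 7.62 against 4.26. RASGRP1, an exchange factor that activates RAS in response to diacylglycerol, read 10.41 against 2.21, at least 294-fold. LDB2, a cofactor of LIM-domain transcription factors, read 9.49 against 2.21, at least 155-fold. MEIS2, a homeodomain transcription factor, read 11.16 against 4.22, and CCM2L, a relative of the junctional scaffold CCM2, 11.75 against 4.57. AFAP1L2, an adaptor of SRC (9.10 against 2.21), NEU1, a lysosomal sialidase (8.78 against 2.21), ANKRD22 (8.37 against 2.21), the long noncoding RNA BLACAT1 (8.28 against 2.21) and ATRNL1 (8.21 against 2.21, by 1 of its 2 probe sets above background) were listed at background in MP2-α9α2 cells. VEPH1, whose fly relative is melted, read 9.02 against 2.76, and all 4 of its probe sets were at least 2-fold higher.

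The largest decreases were smaller and included receptors and transporters. RARB lay at 2.21 for MP2-α2Δ against 8.11 for MP2-α9α2 cells, at least 59.7-fold lower. A second RARB probe set read 2.48 against 6.47, and another read 2.23 on both arrays. BMPR1B, a type I receptor for bone morphogenetic proteins, read 2.64 against 7.48, by 1 of its 3 probe sets. IL1RAPL1, a synaptic adhesion protein of the interleukin 1 receptor family, read 3.00 against 7.75. PPARG, a nuclear receptor of fat cell differentiation, read 3.20 against 7.64. PLPP3, a phosphatase of lysophosphatidic acid, read 4.04 against 8.45, and the others of its 3 probe sets 2.24 against 5.33 and 2.21 against 4.01. ETV1, an ETS family transcription factor, read 5.27 against 9.63 and was lower by 4 of its 5 probe sets, whereas KLF12, a zinc finger repressor (3.22 against 7.60), was lower by 1 of 6. SLC1A1, a glutamate transporter (2.61 against 6.50), RALGPS2, an exchange factor for RAL (5.74 against 9.60), LRP12, a member of the LDL receptor family (4.26 against 8.04), KCNMA1, the pore of the large-conductance potassium channel (5.10 against 8.83), and PTPRG, a receptor tyrosine phosphatase (4.06 against 7.76), followed. WLS, which carries Wnt proteins to the cell surface, read 4.99 against 8.55, and GLUL, glutamine synthetase, 8.57 against 11.99. B4GALT6, which makes lactosylceramide (6.95 against 10.34), PCDH18, a protocadherin (3.29 against 6.65), and MSX2, a homeodomain factor (4.71 against 8.01), were among the 20.

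**Figure D2:**
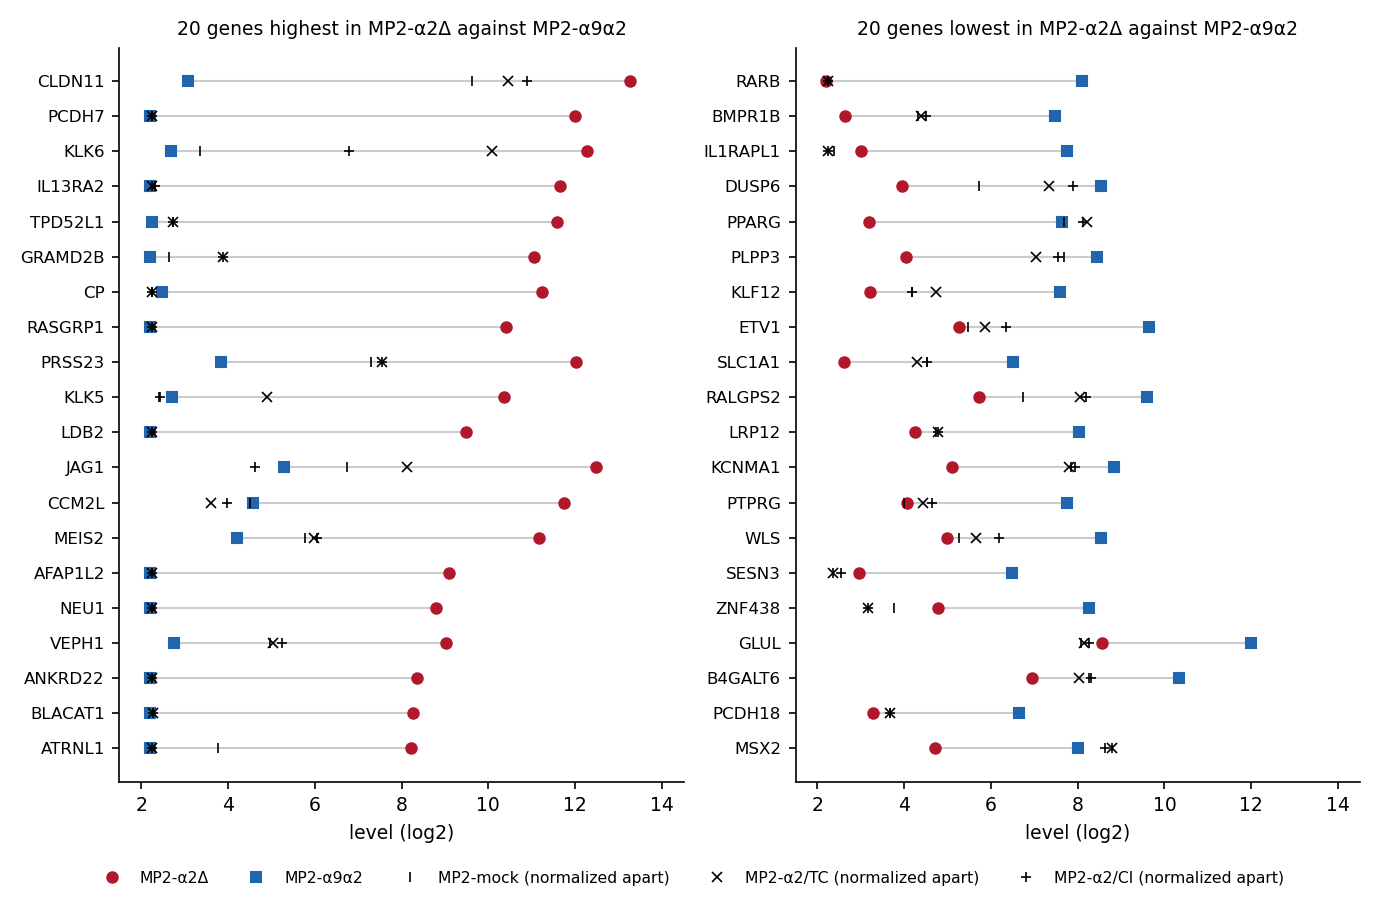
Log2 levels (x axis) of the 20 genes with the largest increases (left) and the 20 with the largest decreases (right) between MP2-α2Δ (red circles) and MP2-α9α2 cells (blue squares), with the levels of the other 3 arrays as black marks, which were normalized apart. The 20 increases had MP2-α9α2 values between 2.21 and 5.30. The decreases had MP2-α2Δ values between 2.21 and 5.74, other than GLUL (8.57) and B4GALT6 (6.95).

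Set beside the other 3 arrays, MP2-α2Δ cells held most of the probe sets that were present on a single array. Of the 54613 non-control probe sets, a level of at least 6 on one array and under 3 on the other 4 was found for 45 probe sets of 30 genes in MP2-α2Δ cells, 4 of 3 genes in MP2-α9α2 cells, 1 in MP2-mock cells and none in cells of MP2-α2/TC or of MP2-α2/CI. The arrays were normalized in separate sets, and MP2-α2Δ and MP2-α9α2 levels ran higher on the whole, with medians of 7.72 and 7.69 against 6.88 to 6.89 over probe sets above background on all 5. The part of scaling in these counts was not tested. Of the 2343 probe sets higher in MP2-α2Δ cells, 983 departed by 2-fold or more from the median of the other 3 arrays in MP2-α2Δ cells only. In MP2-α9α2 cells only, 880 departed so. Of the 1533 lower ones, 186 departed in MP2-α2Δ cells only and 1093 in MP2-α9α2 cells only. After quantile normalization of the 5 arrays these counts were 550 and 1355 of the higher, and 468 and 731 of the lower. Among the 30 genes, beside ITGA2 and ITGA1, were NFIA, a transcription factor of the nuclear factor I family with 3 of its 6 measured probe sets in this class (7.36, 7.29 and 6.15 in MP2-α2Δ cells, each against 2.21 in MP2-α9α2 cells). Others were WT1, the Wilms tumour zinc finger protein (6.97 against 2.21), LAMB3, the β3 chain of laminin-332 (6.80 against 2.21), EPHA7, an ephrin receptor (6.73 against 2.21), PLA2G4A, the cytosolic phospholipase A2 (6.49 against 2.21), and BMAL2, a relative of the clock protein BMAL1 (6.74 against 2.21). The 3 genes seen in MP2-α9α2 cells only were RARB, IL1RAPL1 and SESN3, a stress-induced sestrin (2.95 in MP2-α2Δ against 6.49 in MP2-α9α2 cells). XDH, which makes uric acid, was the gene absent from MP2-α9α2 cells only, at 7.64 for MP2-α2Δ against 2.21 for MP2-α9α2 cells and 7.86 to 8.48 on the other 3 arrays. A second XDH probe set read 4.02 against 4.01.

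Probe sets of the same gene were the only repeat measure within an array. Among 6647 genes with at least 2 probe sets above background on both arrays, the brightest and the next differed in their log2 difference by a median of 0.28, and r between them across genes, which are not replicates, was 0.61. Of 984 genes at least 2-fold apart by the brightest probe set, the next had the same direction in 710 (72.2%), was 2-fold apart the same way in 388 (39.4%) and the opposite way in 4. Of 3262 genes with at least 3 probe sets above background, 50 were at least 2-fold apart the same way by all of them, 26 higher and 24 lower. RBMS1, an RNA-binding protein, was higher by all 6, at 10.63, 10.73, 10.71, 11.16, 8.21 and 11.11 in MP2-α2Δ cells against 7.72, 7.63, 7.51, 8.58, 4.82 and 8.90 in MP2-α9α2 cells. STC1, the secreted glycoprotein stanniocalcin 1, read 12.02, 10.23 and 10.73 against 7.80, 4.37 and 6.12. GBP1, an interferon-induced GTPase, read 9.67, 8.21 and 7.56 against 6.26, 3.54 and 3.73. GLUL was lower by all 3, at 6.73, 8.57 and 5.48 against 9.24, 11.99 and 8.77, and WLS by all 3, at 4.99, 2.46 and 4.25 against 8.55, 5.35 and 8.08. CP, PCDH7, PRSS23, BMAL2, ADD3, EPHA7, VEPH1, MCHR1 and CXADR were the other genes of this class with the largest increases, and DUSP6, LRP12, B4GALT6 and PLPP3 those with the largest decreases.

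Gene groups were described by counts of members at least 2-fold apart beside the 10.1% higher and 4.97% lower of all measured genes, whose median was 0. Glutathione transferases, aldehyde dehydrogenases and other enzymes that modify foreign or reactive compounds stood out on the higher side, with 11 of 22 measured genes higher, 1 lower and a median of 0.96. They included MGST2 and MGST1, microsomal glutathione transferases (8.52 in MP2-α2Δ against 5.40 in MP2-α9α2 cells for MGST2, and 13.20 against 11.41 for MGST1), and GSTA4, which conjugates products of lipid peroxidation (11.11 against 8.96). ALDH7A1, which protects against reactive aldehydes, read 12.83 against 11.11 and GSTT1 6.99 against 5.45. The GSTM genes lie side by side on chromosome 1 and all 4 that were measured were higher, GSTM4 at 7.25 against 5.73, GSTM2 at 9.19 against 7.56, GSTM1 at 9.14 against 7.11 and GSTM3 at 11.53 against 9.73. These genes are near-identical copies, and probe sets that read several of them cannot tell them apart. CYP26B1, which breaks down retinoic acid, was higher (7.87 against 5.80), beside the lower level of its receptor RARB (2.21 against 8.11). ALDH1L2, the mitochondrial formyltetrahydrofolate dehydrogenase, was the one that was lower (2.21 against 3.43).

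Of 19 measured S100 proteins and annexins, calcium-binding proteins, 4 were higher and none lower, with a median of 0.31. S100A2 lay at 8.72 for MP2-α2Δ against 5.19 for MP2-α9α2 cells, S100A16 at 11.46 against 8.92, S100A10, the partner of annexin A2, at 14.33 against 12.62, and S100A3 at 6.17 against 4.57. Of 13 histone genes 3 were higher, H2AC6 (7.02 against 4.05), H2BC12 (10.99 against 8.25) and H1-2 (7.73 against 5.49), none was lower and the median was 0.59. Of 28 genes of oxidative phosphorylation 1 was higher, NDUFS3 of complex I (11.74 against 10.61), none was lower and the median was 0.41, so that the share 2-fold higher (3.57%) was below that of all genes. Of 48 genes of replication and mitosis 5 were higher, among them GINS2 of the replicative helicase (12.30 against 10.71), AURKB, the mitotic kinase Aurora B (11.81 against 10.26), and TK1, thymidine kinase (12.36 against 11.05), none was lower and the median was -0.02, a share higher (10.4%) near that of all genes. Ribosomal protein genes differed little, with RPS27 (13.50 against 14.60) the only one of 24 that was 2-fold apart.

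Among signalling groups, 5 of 22 measured Notch pathway genes were higher and 2 lower: beside the ligand JAG1 (12.49 in MP2-α2Δ against 5.30 in MP2-α9α2 cells), the transcriptional repressors HES4 (7.95 against 3.13), HES1 (8.41 against 5.57) and HEY1 (3.88 against 2.32) were higher and the ligands DLL1 (4.05 against 5.30) and JAG2 (8.81 against 9.88) lower. Of 39 genes of the TGF-β and BMP pathway 4 were higher and 6 lower. The inhibitors of DNA binding ID1 (13.37 against 12.07), ID2 (11.41 against 9.18) and ID3 (13.38 against 11.84), which are target genes of BMP signals, were higher, and the receptor BMPR1B (2.64 against 7.48) and LTBP2, a latent TGF-β binding protein (7.24 against 9.02), were lower. Of 30 cytokines, chemokines and receptors 5 were higher and 7 lower. CXCL1 (12.15 against 9.59) and CXCL2 (11.41 against 8.85), chemokines for neutrophils, were higher, although a second CXCL2 probe set differed by only 0.12. LIFR (10.20 against 11.55) and OSMR (12.23 against 13.90), receptors of the interleukin 6 family, and IL4R (7.03 against 9.24) were lower.

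Among receptors, ligands and transporters, none of 31 measured Wnt pathway genes was higher and 4 were lower, with a median of -0.18: the ligand WNT5A (2.21 in MP2-α2Δ against 5.43 in MP2-α9α2 cells), the secreted inhibitor SFRP1 (5.86 against 8.53) and the receptors FZD6 (9.60 against 10.90) and FZD3 (7.97 against 9.04). Among 10 genes of the EGF family and its receptors none was higher and 3 were lower, the ligands NRG2 (2.44 against 4.49) and HBEGF (6.77 against 8.12) and the receptor inhibitor LRIG1 (4.97 against 6.09), with a median of -0.57. Collagen receptors other than integrins had 3 of 7 lower, DDR2, SDC3, a syndecan (7.84 against 9.49), and MRC2, which takes up collagen fragments (7.91 against 9.11). Semaphorins and other guidance genes had 2 of 29 higher and 7 lower. NRP1, a coreceptor for semaphorins and VEGF (5.0 against 2.21), and SEMA6B (5.49 against 3.21) were higher, and SEMA3D (7.49 against 9.23), the netrin receptor UNC5A (2.91 against 4.64) and NTN1, netrin 1 (5.14 against 6.60), were lower. Of 27 amino acid transporters 1 was higher, SLC6A12, which carries betaine and GABA (7.35 against 2.63), and 5 were lower, among them SLC38A1, a glutamine carrier (11.66 against 13.12), and SLC7A1, a carrier of cationic amino acids (11.45 against 12.76), with a median of -0.47. Of 36 developmental transcription factors 2 were higher and 7 lower, the lower ones including FOXQ1 (3.63 against 6.43), FOXO1, a target of AKT (3.55 against 6.26), and SOX8 (7.87 against 9.37). Single genes of other lists were also lower, such as COL6A3, a chain of collagen VI (7.98 against 11.20), and VEGFC, a growth factor of lymphatic vessels (8.76 against 11.61).

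**Figure D3:**
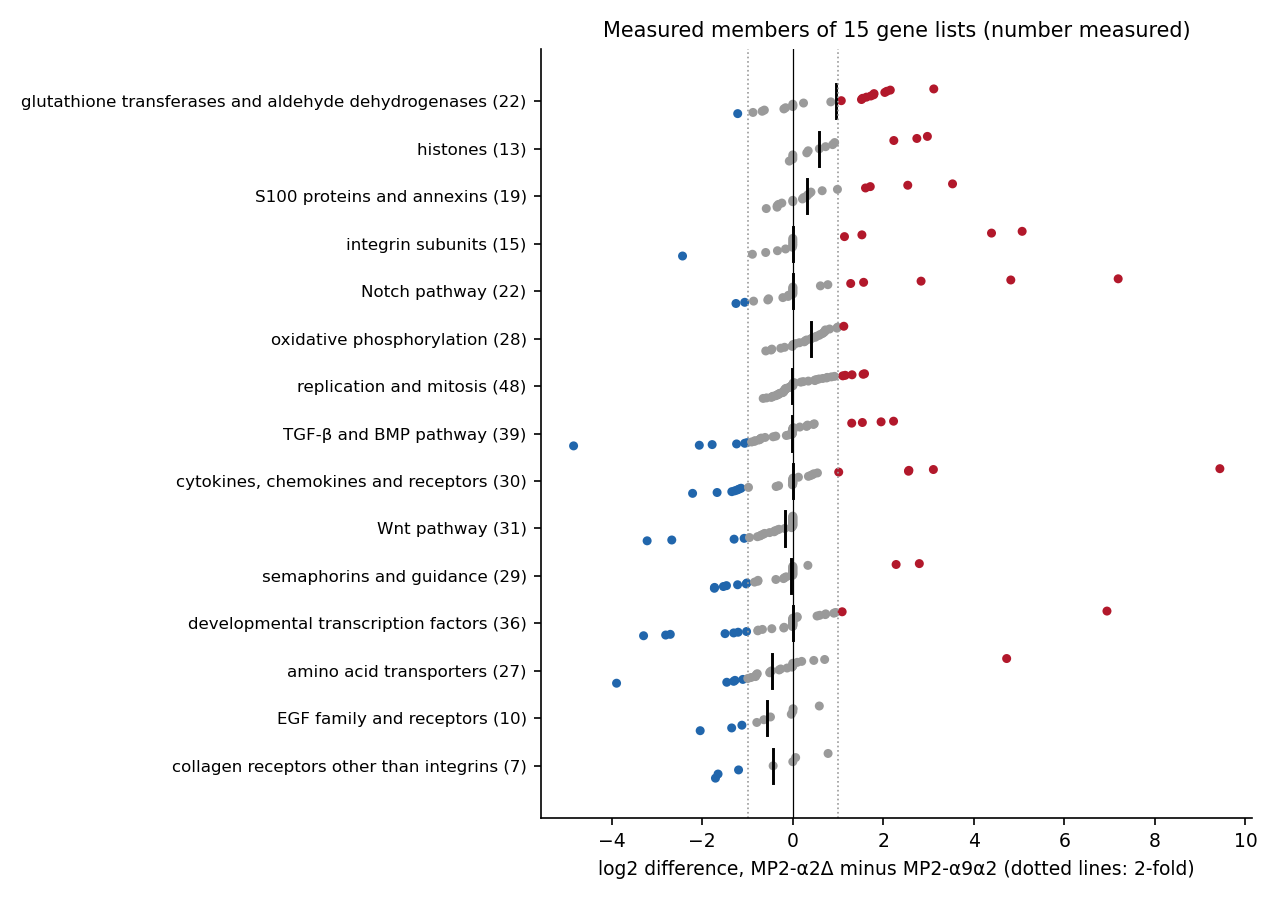
Log2 difference, MP2-α2Δ minus MP2-α9α2, of each measured member of 15 gene lists (1 point per gene, red at least 2-fold higher, blue at least 2-fold lower, grey neither), with the median of each list as a black bar and the number of measured genes in brackets. The transferase and dehydrogenase list has 11 red points of 22 and a median of 0.96, and the Wnt list has none.

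The direction of the difference went with the length of the gene, taken as its span in the RefSeq annotation of GRCh38.p14, a property that had no part in choosing the members. Genes at least 2-fold higher in MP2-α2Δ cells had a median length of 14.2 kb, those at least 2-fold lower 76.7 kb and those less than 2-fold apart 28.5 kb. In the shortest eighth of the measured genes (up to 5.27 kb) 281 of 1614 were higher (17.4%) and 29 lower (1.80%). In the longest eighth (from 124 kb) 94 were higher (5.82%) and 207 lower (12.8%). From the shortest to the longest eighth the share lower was 1.80%, 1.98%, 2.35%, 2.54%, 4.09%, 5.58%, 8.61% and 12.8%, and it increased at each step. The share higher was 17.4%, 15.3%, 13.4%, 10.5%, 6.51%, 6.38%, 5.08% and 5.82%. Among the 8954 genes with a level of at least 6 on both arrays the median difference was 0.44 in the shortest eighth and -0.38 in the longest. The few genes at least 16-fold higher went the other way, with a median of 49.7 kb over 56 genes. Groups described above differed in length too, with medians of 2.24 kb for the histones, 12.5 kb for oxidative phosphorylation, 17.7 kb for the transferase and dehydrogenase list, 33.1 kb for the Wnt pathway, 53.8 kb for the amino acid transporters and 90.3 kb for the guidance genes. Within the transferase and dehydrogenase list, 8 of 14 genes shorter than the median of all genes (27.8 kb) were higher and 3 of 8 longer ones. RNA integrity and the poly-A spikes are given above beside the controls, and their part in the relation to length was not tested.

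**Figure D4:**
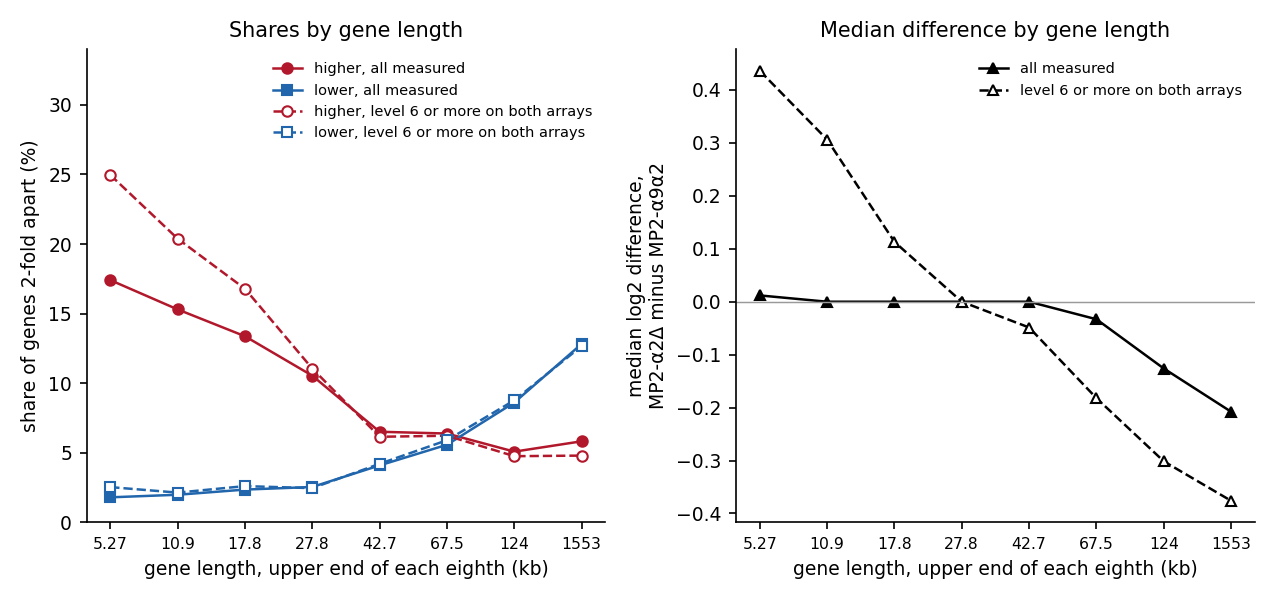
Share of genes at least 2-fold higher (red circles) or lower (blue squares) in MP2-α2Δ cells (left, y axis in percent) and median log2 difference, MP2-α2Δ minus MP2-α9α2 (right), in eighths of the measured genes ordered by length (x axis, upper end of each eighth of all measured genes in kb). Open symbols are genes with a level of at least 6 on both arrays, placed in the same length classes as all measured genes. The share lower goes from 1.80% in the shortest to 12.8% in the longest eighth, and the share higher from 17.4% to 5.82%.

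The differences were also uneven over the chromosomes. On chromosome 10, 18 of 511 measured genes were higher in MP2-α2Δ cells (3.52%) and 89 lower (17.4%), and the median difference was -0.22. Among its genes with a level of at least 6 on both arrays 8 of 359 were higher and 71 lower, with a median of -0.51. The second brightest probe set by the mean of the 2 arrays gave 4 higher and 58 lower of 288 genes there (20.1% lower, against 5.81% of 6647 genes on all chromosomes). It is not a separate measure for every gene, because the gene's value was chosen by the mean of 5 arrays. For some genes, such as ETS2 on chromosome 21, the second brightest was the probe set that gave the gene's value. The share lower was much the same along the chromosome, at 19.9%, 15.9% and 16.5% in 3 successive parts of its gene order of near-equal number. Of 481 windows of 31 neighbouring genes on chromosome 10, each moved on by 1 gene, 98.3% held more lower than higher genes, against 18.9% elsewhere. These windows overlap and restate the same genes, so they are not separate regions. Genes there at or above the median length were lower in 77 of 327 (23.5%) and shorter ones in 12 of 184 (6.52%), against 7.78% and 2.17% on all chromosomes. The largest decreases were of KCNMA1, ZNF438, a zinc finger protein (4.78 for MP2-α2Δ against 8.27 for MP2-α9α2 cells), OGDHL, a relative of oxoglutarate dehydrogenase (5.54 against 8.46), HSPA12A, a distant HSP70 relative (5.73 against 8.30), and EBF3, a transcription factor (3.73 against 6.15). Runs of 3 neighbouring genes were lower together: ZMYND11, DIP2C and LARP4B at the start of the gene order (10.93 against 12.01, 7.20 against 8.61 and 8.74 against 9.82), ERCC6, OGDHL and PARG (6.0 against 8.40, 5.54 against 8.46 and 9.88 against 11.16), and HSPA12A, SHTN1 and SLC18A2 (5.73 against 8.30, 8.87 against 10.05 and 2.21 against 3.64). AFAP1L2, ANKRD22 and ATRNL1 were exceptions, as was ADD3, a membrane skeleton adducin, higher by all 4 of its probe sets.

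On chromosome 6 the balance was the reverse, with 112 of 654 genes higher (17.1%) and 21 lower (3.21%). Of 3 successive parts of 218 genes, the first held 56 higher and 1 lower (25.7% and 0.459%), the next 35 and 7, and the last 21 and 13. The window of 31 genes with the highest median anywhere (1.13) ran from DSP to CAP2 in the first part and held 16 genes at least 2-fold higher and none lower. In it were ADTRP, an androgen-dependent regulator of tissue factor inhibitor (11.92 for MP2-α2Δ against 6.78 for MP2-α9α2 cells), MCUR1, a regulator of mitochondrial calcium uptake (12.17 against 9.69), TBC1D7, a subunit of the TSC complex (10.05 against 8.08), SIRT5, a mitochondrial deacylase (9.88 against 7.95), TMEM14B (12.94 against 11.26) and DSP, desmoplakin (10.83 against 9.70). Of the probe sets above background, 1 of 2 was 2-fold higher for MCUR1 and 1 of 5 for SIRT5. Chromosome 21 had the highest share higher, 30 of 139 genes (21.6%), with 5 lower (3.60%), and 21 of 68 genes shorter than the median length were higher and none lower. ETS2, an ETS family transcription factor, lay at 9.74 for MP2-α2Δ against 5.81 for MP2-α9α2 cells, CXADR, the coxsackievirus and adenovirus receptor of tight junctions, at 10.62 against 7.68, and SMIM11 at 8.58 against 5.54, by 1 of its 3 probe sets. On chromosome 5, that of ITGA1 and ITGA2, 23 of 584 genes were higher (3.94%) and 57 lower (9.76%), among them the neighbours LIFR, OSMR and RICTOR, a subunit of the mTOR complex that phosphorylates AKT (9.96 against 10.96).

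**Figure D5:**
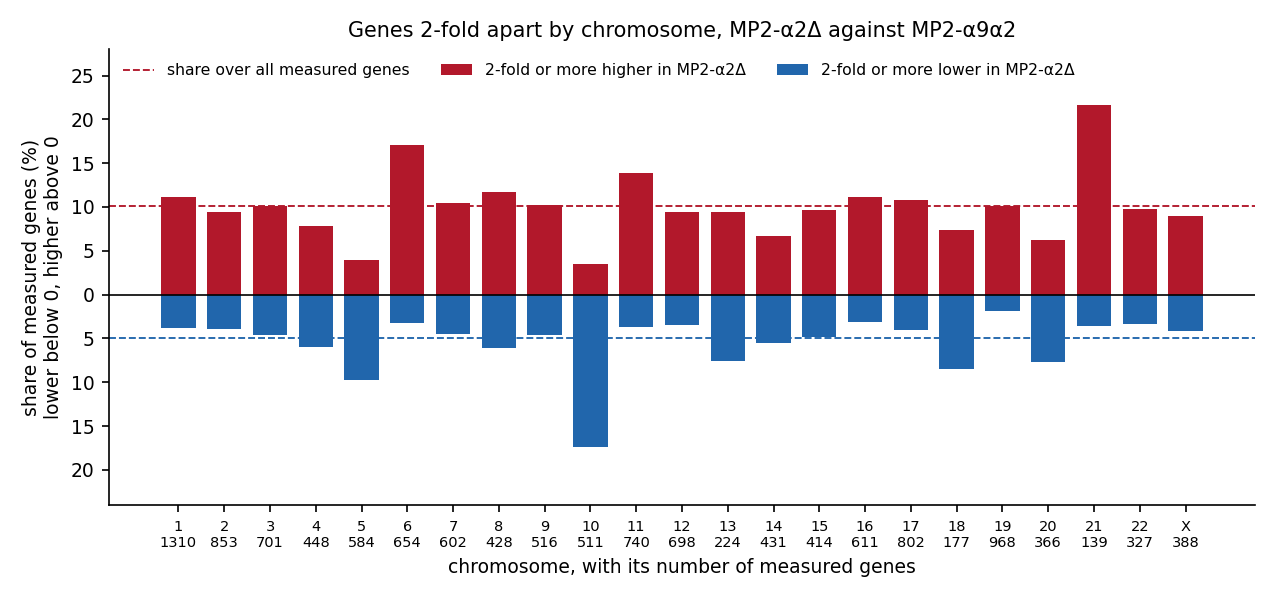
Share of the measured genes of each chromosome (x axis, with the number of genes) that differed by at least 2-fold, MP2-α2Δ above MP2-α9α2 (red, above 0) or below it (blue, below 0), in percent, with the shares over all measured genes as dashed lines (10.1% and 4.97%). Chromosome 10 has 17.4% lower, and chromosomes 6 and 21 have 17.1% and 21.6% higher.

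Over all chromosomes there were 33 runs of at least 3 neighbouring measured genes 2-fold apart the same way. Besides those named, S100A3, S100A2 and S100A16 formed such a run on chromosome 1, as did FBXO2, FBXO44 and FBXO6, F-box proteins of which FBXO2 and FBXO6 bind glycoproteins, at 8.15, 5.94 and 9.95 in MP2-α2Δ cells against 5.97, 4.92 and 7.83 in MP2-α9α2 cells. FBXO44 passed 2-fold narrowly, with a log2 difference of 1.03, and its probe set brightest on the 2 arrays differed by 0. On chromosome 7 the imprinted neighbours SGCE, a sarcoglycan, and PEG10, a retrotransposon-derived gene, were higher together with PPP1R9A, a neurabin that binds actin, at 6.12, 6.37 and 9.47 against 3.49, 4.64 and 7.81. On chromosome 11 a run held FOSL1, an AP-1 subunit (10.03 against 8.0), with CCDC85B, C11orf68 and DRAP1. The part of gene order in these differences was not tested, and neighbours such as the FBXO and S100 genes also share sequence.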

How the data were processed

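Total RNA of 5 MIAPaCa2 populations was read on 1 array each. The authors deposited 1 normalized log2 value per probe set and array; GCRMA and MAS5 stand in the submitters' processing notes with no role given, and base 2 was read from the span of the values. Arrays with a common minimum (2.21 for MP2-α2Δ and MP2-α9α2, 2.24 for the others) were taken as normalized together. Control probe sets (62 of 54675) were left out. Genes were named from platform annotation (41091 probe sets with 1 symbol, 1801 with several, 11721 with none), brought up to date through RefSeq (GRCh38.p14), which also gave gene order, length and promoters. Values below background were raised to it, differences were taken as MP2-α2Δ minus MP2-α9α2, and a difference of at least 1 (2-fold) was counted. The script was tested on simulated data. Python 3.11.15, pandas 2.3.3 and numpy 2.4.6 were used.

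Genes named were the 20 largest increases and decreases, the largest members of each described list, genes whose probe sets all agreed, neighbours in runs, genes of the constructs and line markers, and leading genes of the extreme chromosomes. Genes present on 1 array only, members of the window on chromosome 6, motifs and the splits by gene length were chosen after their values were seen. The members and lists were chosen with earlier results of these data known. Alternatives were another background level or none, other scalings and thresholds, and other probe sets.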

Additional observations from a re-analysis of the deposited data

How the results depend on the processing

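None of the 355 named genes at least 2-fold apart changed direction under any alternative run, where a fall to 0 was not counted as a change. These genes were picked for being 2-fold apart. The other scalings moved the median of all members by only -0.04 to -0.03, so that a change of direction was unlikely from the start. The counts of 2343 higher and 1533 lower probe sets were 1439 and 1029 without the _x_at and _s_at probe sets, which can read several transcripts, 751 and 432 at 3-fold, 4509 and 4092 at 1.5-fold, and 1299 and 642 with 1 probe set per gene; the stricter and wider thresholds and the fewer probe sets account for these by construction. Under another background level, other scalings and background passed on both arrays they were 2175 to 2343 and 1410 to 1690. The higher share of these, 60.4%, was 52.4% to 66.9% over all alternatives, and 56.5% after centring, which moved the median of all members by -0.04. The share lower on chromosome 10 was 17.4% to 20.8% and the share higher on chromosome 21 was 20.1% to 28% under alternatives chosen after the data were seen. With the median over the probe sets of a gene, 280 of 355 named genes 2-fold apart were still so, and 336 of 348 with background at 4. Over gene lists, 6 of 68 medians moved by more than 0.28 with no background level, where members at background on both arrays entered by construction with differences near 0. With background at 4, 9 of 64 moved so, and 4 of 68 with the median over probe sets. The cause of these last moves was not tested. Differences near background are compressed, and a probe set at the minimum gives only a bound. No paired analysis was possible because each population has 1 array.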
